A study of Mus musculus with 36 samples.

Results

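The mitochondrially encoded genes are the genes carried by the small circular DNA of the mitochondrion itself. They were taken as all genes of the count table whose symbol starts with mt-, which gave 37 of 37417 genes, namely 13 protein-coding genes, 2 ribosomal RNA (rRNA) genes and 22 transfer RNA (tRNA) genes. They were followed across 36 bulk RNA libraries, each made from 1 subcutaneous mouse tumour. The labels name 3 tumour models, each with 12 libraries: the colon adenocarcinoma line MC38 and the pancreatic line PancO2, both in C57BL/6J hosts, and the colon carcinoma line CT26 in BALB/c hosts. All hosts are labelled wild type and 12 weeks old. Within each model, 4 mice each received IgG from rat serum, an antibody against PD-1 or an antibody against CTLA4, at 10 mg/kg into the peritoneal cavity. Every tumour was a line transplanted under the skin, so the libraries hold tumour cells together with host cells. Libraries are named by their label and mouse number, such as PancO2 anti-PD-1 71.

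Mitochondrial DNA is copied and transcribed separately from the nuclear genome. Its strands are transcribed as long precursors, which are cut at the tRNAs that lie between the other genes. The protein-coding genes supply subunits of the respiratory chain and of ATP synthase, while the rRNAs and tRNAs serve the mitochondrial ribosomes that translate them. Most mature mitochondrial messengers carry short poly(A) tails, and mitochondrial tRNAs do not, so poly(A) selection, which was used here, does not sample these kinds of RNA alike.

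The labels did not divide the libraries as their expression did. Libraries are therefore described in 3 classes of 12: H2-Ea-ps-positive libraries, with the class II histocompatibility pseudogene H2-Ea-ps above 10 CPM, Cp-high libraries, with the ceruloplasmin gene Cp above 1000 CPM, and Cp-low libraries with neither. CPM is the count of a gene scaled to 1000000 counts assigned to genes in that library. H2-Ea-ps was between 32.8 and 134 CPM in the H2-Ea-ps-positive libraries and at most 0.0845 CPM elsewhere, and Cp was between 1389 and 2168 CPM in the Cp-high libraries and at most 611 CPM elsewhere. Each class held libraries of all 3 labelled models. H2-Ea-ps was present in 8 of the 24 libraries labelled C57BL/6J, a strain known not to express it, and absent in 8 of the 12 labelled BALB/c. The classes were read from the libraries, so class differences are given as levels and ranges, without a test. Totals ran from 7883106 counts, in PancO2 anti-PD-1 71, to 41751023.

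The mitochondrial genes took between 2.80% and 4.35% of counts in 35 libraries and 15.7% in PancO2 anti-PD-1 71, an H2-Ea-ps-positive library (exact binomial 95% interval 15.65% to 15.70%, which like the other intervals here covers counting error only). Protein-coding genes made up nearly all of this in every library. In PancO2 anti-PD-1 71 they took 15.2% of counts, the rRNAs 0.401% and the tRNAs 0.0851%. In the other 11 H2-Ea-ps-positive libraries the coding share ran from 3.62% to 4.12% and the rRNA share from 0.144% to 0.291%. Thus the coding share of PancO2 anti-PD-1 71 was 3.89 times its class median, the rRNA share 2.12 times.

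**Figure D1:**
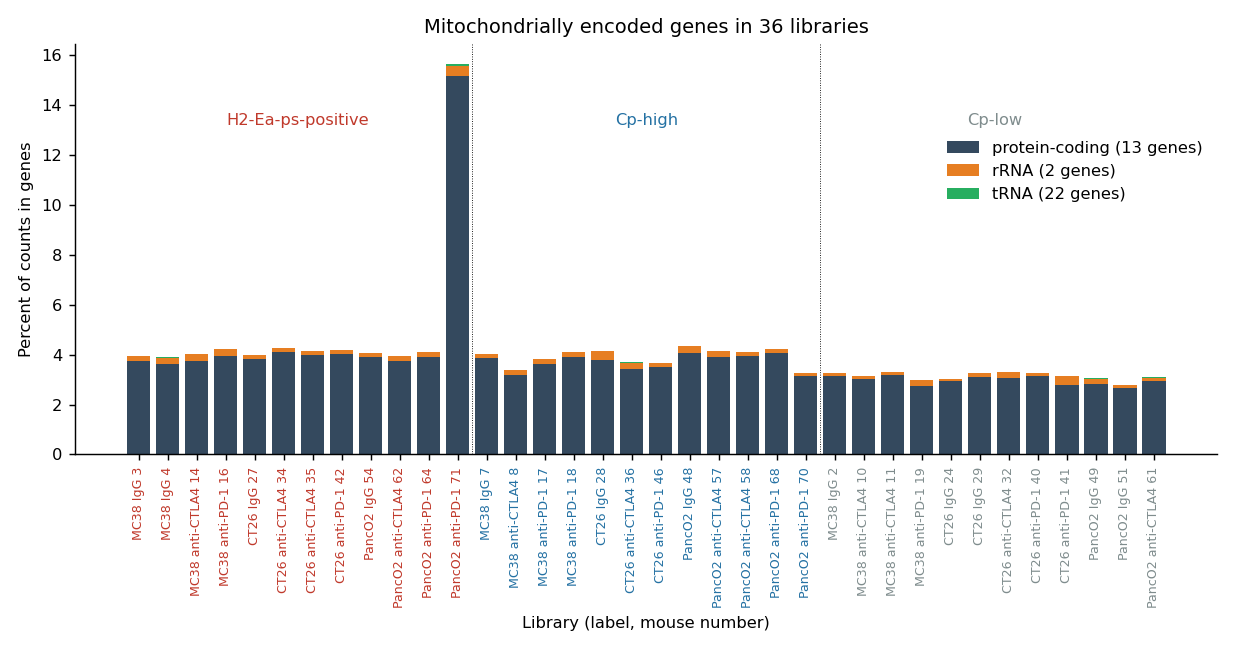
Share of counts in genes (percent) taken by protein-coding, rRNA and tRNA mitochondrial genes, stacked, in each of the 36 libraries, arranged by class. PancO2 anti-PD-1 71 stands at 15.7% and every other library between 2.80% and 4.35%, nearly all of it protein-coding.

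How the reads of several of these genes could be counted depends on copies of mitochondrial DNA in the nuclear genome. Reads that fit 2 places are set aside by HTSeq, the counting program. A search of the GENCODE transcripts of GRCm38 found 11 nuclear transcripts that share at least 200 bases with a mitochondrial gene. Of these, 7 lay side by side on the minus strand of chromosome 1 (chr1:24611535-24616197). All 678 bases of Gm10925 were identical to mt-Atp6, all 681 of Gm28661 to mt-Co2, all 783 of Gm28437 to mt-Co3, all 876 of Gm28439 to the start of mt-Nd4 and all 294 of Gm10222 to mt-Nd4l. Gm28438 differed from mt-Nd3 at 1 of 345 bases, and Gm29216 from the end of mt-Co1 at 6 of 492. Only 4 of the 11 copies were rows of the count table (Gm13340, Gm13341, Gm10222 and Gm11407).

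The coding gene with the fewest counts was mt-Nd4l, a small complex I subunit at chrM:9877-10173, plus strand. It had no count in 30 libraries and 1 count in each of the other 6, and its copy Gm10222 had between 0 and 2 counts. Its sequence in GRCm38 is shown because every base but the last 3 (in capitals) is found in that copy.
mt-Nd4l: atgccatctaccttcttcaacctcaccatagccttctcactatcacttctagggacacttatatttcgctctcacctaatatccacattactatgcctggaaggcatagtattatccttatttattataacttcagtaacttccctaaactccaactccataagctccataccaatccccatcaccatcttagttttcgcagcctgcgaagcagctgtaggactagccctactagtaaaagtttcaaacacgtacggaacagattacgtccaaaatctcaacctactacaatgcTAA

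mt-Nd3, another complex I subunit (chrM:9459-9806, plus strand), shows how close the copies are. The difference is T3C, counted from 1 at the first base of the gene, and the first 18 bases are given with that base in capitals.
mt-Nd3: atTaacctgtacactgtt
Gm28438: atCaacctgtacactgtt

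A share of stretches was computed for each member, as the percentage of its 50-base stretches that also occur in a nuclear transcript. It was 100% for mt-Co2, 99.9% for mt-Co3, 99.5% for mt-Atp6, 98.8% for mt-Nd4l, 98.0% for mt-Nd3, 62.2% for mt-Nd4 and 51.1% for mt-Co1. It was 8.19% for mt-Nd2, 7.61% for mt-Nd5, 1.04% for mt-Rnr2 and 0% for mt-Rnr1, mt-Nd1, mt-Atp8, mt-Nd6, mt-Cytb and all 22 tRNAs. Only annotated transcripts were searched, so the bases between neighbouring nuclear copies were left out. A share of 0% therefore does not exclude a nuclear copy, for example of mt-Atp8 or of a tRNA. The counts did not follow the share of stretches. Although mt-Nd4l was all but absent, mt-Co3 was among the most abundant members.

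Levels can be compared between genes only per length. Over the 35 libraries other than PancO2 anti-PD-1 71, the median level was 6281 CPM per kilobase for mt-Co3, 5781 for mt-Co1 and 4388 for mt-Co2, the 3 mitochondrial subunits of cytochrome c oxidase. mt-Cytb, the only mitochondrially encoded subunit of complex III, stood at 4077 CPM per kilobase. Among complex I subunits, the median was 3630 CPM per kilobase for mt-Nd1, 2910 for mt-Nd4, 2005 for mt-Nd6, 1651 for mt-Nd2, 1432 for mt-Nd5, 1301 for mt-Nd3 and 0 for mt-Nd4l. The ATP synthase subunits were low, at 745 CPM per kilobase for mt-Atp6 and 15.9 for mt-Atp8. mt-Atp6 and mt-Atp8 share 43 bases, and a read inside such an overlap can be assigned to neither. The small rRNA mt-Rnr1 had a median of 762 CPM per kilobase and the large rRNA mt-Rnr2 684, which placed both below every coding gene except mt-Atp8, mt-Nd4l and, for mt-Rnr1, mt-Atp6.

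**Figure D2:**
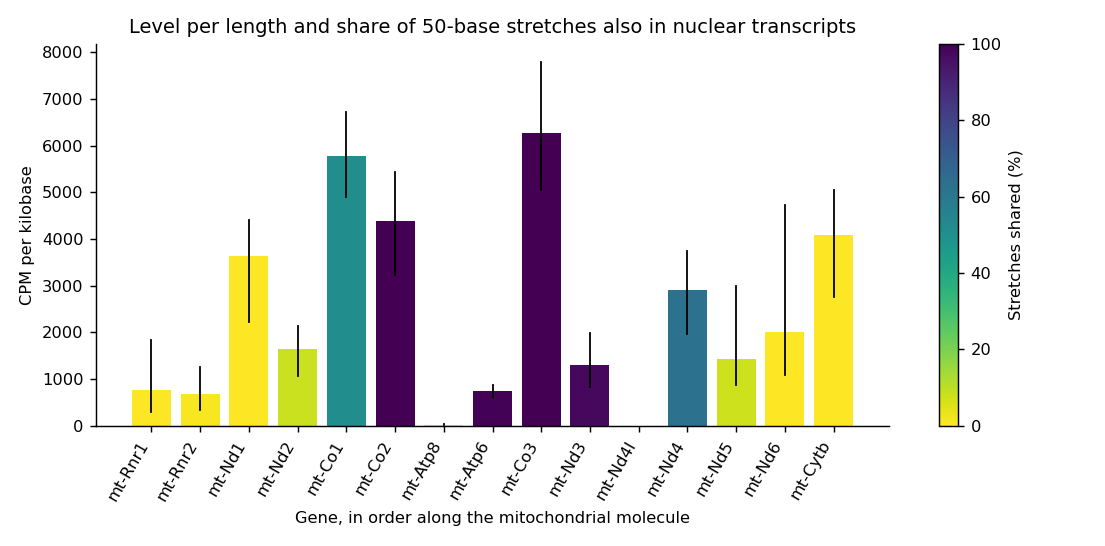
Median level (CPM per kilobase, bars from 0) of the 13 coding and 2 rRNA genes over 35 libraries, with the lowest and highest library as a line. The colour gives the percentage of 50-base stretches also found in nuclear transcripts, and mt-Co3 (99.9%) is highest while mt-Atp6 (99.5%) is at 745 and mt-Nd4l (98.8%) at 0.

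The tRNAs were sparse, as 17 of 22 had a median under 1 CPM and only mt-Te and mt-Ts1 were above 10 CPM in every library. The tRNAs for glutamic acid (mt-Te, chrM:14071-14139) and for serine (mt-Ts1, chrM:6870-6938) had medians of 49.6 and 29.7 CPM over the 36 libraries, followed by those for cysteine (mt-Tc, chrM:5192-5257) at 5.87, asparagine (mt-Tn, chrM:5089-5159) at 4.58 and tyrosine (mt-Ty, chrM:5260-5326) at 2.30. These 5 all lie on the minus strand, which carries 8 of the 22 tRNA genes. Whether the counting used strand is not stated, so reads from the opposite strand cannot be told from reads of these genes. The same holds for mt-Nd6, the only coding gene on the minus strand. The sequences below belong to the tRNAs that differed most between PancO2 anti-PD-1 71 and its class, with bases that overlap another mitochondrial gene in capitals (mt-Tq, for glutamine, is at chrM:3772-3842, minus strand).
mt-Ts1: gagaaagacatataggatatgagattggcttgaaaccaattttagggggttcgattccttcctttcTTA
mt-Te: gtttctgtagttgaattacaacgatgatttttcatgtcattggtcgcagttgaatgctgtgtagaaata
mt-Tq: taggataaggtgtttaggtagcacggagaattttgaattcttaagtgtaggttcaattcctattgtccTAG
mt-Tc: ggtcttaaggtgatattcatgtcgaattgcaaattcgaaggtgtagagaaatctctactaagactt

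The members did not contribute alike to the high share of PancO2 anti-PD-1 71. It is a single library, so its values carry no test. Of the CPM by which it exceeded the median of its class, summed over the members, 97.5% came from coding genes, 1.83% from rRNAs and 0.650% from tRNAs. By counts, which also reflect gene length, mt-Nd4 took most in this library, at 25459 CPM where the class otherwise ran from 3780 to 4521. mt-Cytb followed at 24284 CPM, against 4660 to 5777, and mt-Co1 at 24179 CPM, against 8903 to 10388. In those 11 libraries mt-Co1, the longest of these 3 genes, held a median of 23.7% of mitochondrial counts, compared with 15.4% in PancO2 anti-PD-1 71, where mt-Nd4 took 16.2% and mt-Cytb 15.5%.

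Among coding genes, mt-Atp6 and several complex I subunits stood furthest above the class. mt-Atp6 was at 4985 CPM against 487 to 588 in its class, a ratio to the class median of 8.85. The ratio was 6.70 for mt-Nd6, 6.16 for mt-Nd4, 5.91 for mt-Nd2, 5.19 for mt-Nd5, 4.91 for mt-Nd1 and 3.11 for mt-Nd3. For the other coding genes it was 4.71 for mt-Cytb, 3.17 for mt-Atp8, 3.08 for mt-Co2, 2.48 for mt-Co1 and 1.48 for mt-Co3. The ratios of mt-Atp6 and mt-Co3 lie at opposite ends although their genes are adjacent on the same strand and both are covered by a nuclear copy. In counts per 100 counts of mt-Cytb, mt-Co3 stood at 33.4 in PancO2 anti-PD-1 71 and at 93.1 to 128 in the other 35 libraries, whereas mt-Atp6 stood at 20.5 and at 8.81 to 15.2.

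The rRNAs and coding genes were not higher to the same extent. mt-Rnr1 was at 1616 CPM against 550 to 1332 in the other H2-Ea-ps-positive libraries, 2.21 times the class median, and mt-Rnr2 at 2398 CPM against 862 to 1579, 2.07 times. Only mt-Co3 among the 12 coding genes with counts had a lower ratio. PancO2 anti-PD-1 71 had 2.64 rRNA counts per 100 coding counts, the lowest of the 36 libraries. This value was not far from the rest, however, since the other libraries ran from 2.69 in CT26 IgG 24 to 12.7 in CT26 anti-PD-1 41, and mt-Rnr1 was higher in CT26 anti-PD-1 41 (1746 CPM) than in PancO2 anti-PD-1 71. The ratio of the 2 rRNAs to each other, mt-Rnr1 over mt-Rnr2, was 0.674, within the 0.504 to 0.967 of the other libraries.

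Among tRNAs, mt-Ts1 had 3165 counts in PancO2 anti-PD-1 71 and was at 401 CPM against 24.2 to 38.6 in its class, a ratio of 13.6. mt-Te had 3359 counts and 426 CPM against 46.7 to 61.8, a ratio of 8.06, and mt-Tq had 81 counts and 10.3 CPM against 0.448 to 0.935, a ratio of 15.2 (95% interval 12.1 to 18.9 from its own counts). mt-Tm, for methionine, was at 7.23 times the class median on 13 counts. In contrast, mt-Tc had 4 counts and 0.507 CPM, against 1.79 to 9.58, a ratio of 0.0962 (0.0262 to 0.246). mt-Tn was at 6.47 CPM, within the 2.05 to 6.99 of its class, and mt-Ty at 1.01 CPM on 8 counts, against 0.930 to 3.11. The tRNAs of the minus strand thus included both the highest and the lowest ratios. The other 15 tRNAs had at most 7 counts each in this library.

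Over all 15217 genes above 1 CPM in at least 4 libraries, 15.9% were over 2-fold higher in PancO2 anti-PD-1 71 than the class median, and 16 of the 23 members that passed this filter were (11 coding, 2 rRNA and 3 tRNA genes). Over 2-fold lower were 16.7% of genes and 1 member, mt-Tc. PancO2 anti-PD-1 71 was above all other 35 libraries for 15.1% of genes and 16 members, and below all of them for 29% of genes and 1 member, again mt-Tc. The 14 members that did not pass were 13 tRNAs and mt-Nd4l.

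**Figure D3:**
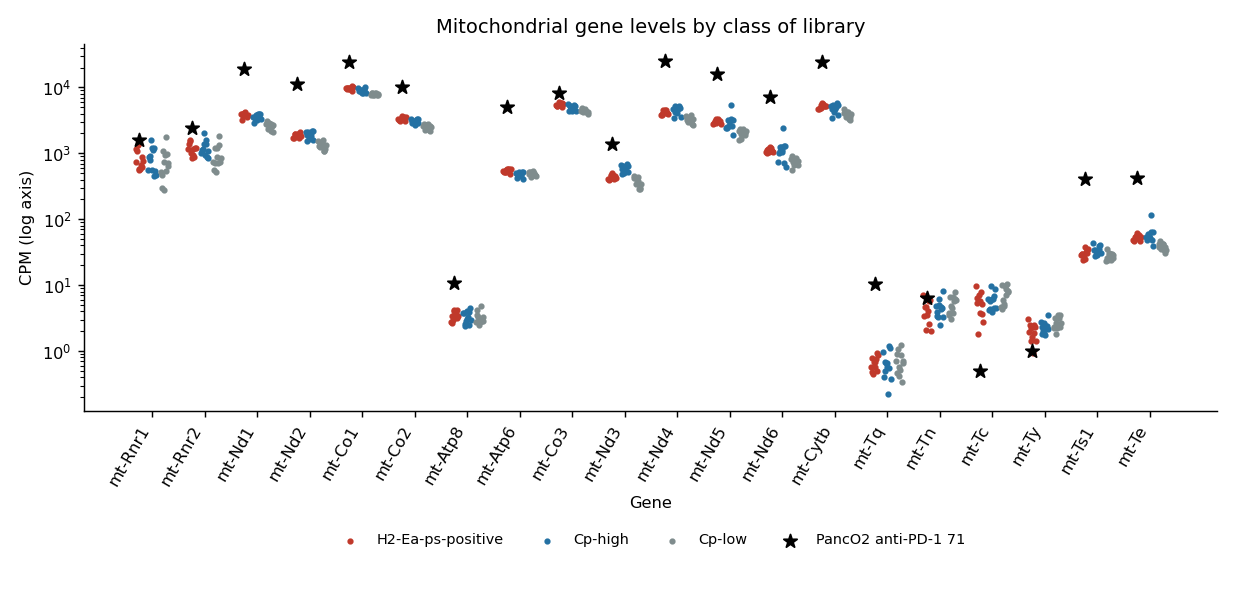
Level (CPM, log axis) of 20 mitochondrial genes in each library, by class, with PancO2 anti-PD-1 71 as a star. The star lies above the other 35 libraries for every coding gene shown and for mt-Tq, mt-Ts1 and mt-Te, close to them for mt-Rnr1 and mt-Rnr2, and below them for mt-Tc.

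The size of these ratios depended on the reads that were not assigned to genes. In PancO2 anti-PD-1 71 only 13.5% of all listed reads were assigned to a gene, compared with 36.6% to 55.2% elsewhere. Reads without a single position made up 60.5% of its listed reads, against at most 45.8% in the others, and reads in no annotated gene 25.6%, against 10.2% to 21.1%. As a share of all listed reads, the mitochondrial genes took 2.11% in PancO2 anti-PD-1 71 and 1.48% to 1.99% in the other H2-Ea-ps-positive libraries. On this scale coding genes stood at 1.25 times the class median and rRNAs at 0.699 times, that is below it, and only 7 of 12 coding genes remained above all other 35 libraries (mt-Nd1, mt-Nd2, mt-Atp6, mt-Nd4, mt-Nd5, mt-Nd6 and mt-Cytb). mt-Co3 was lower there than in any other library, at 0.470 times the class median. Among reads listed with a single alignment, which leaves the multiply placed reads out, the coding ratio was 1.77 and the rRNA ratio 0.978. mt-Atp6 had the highest and mt-Co3 the lowest ratio of the 14 genes with each of these denominators. A denominator scales all genes of a library alike, so this order could hardly change and its persistence is no check. Whether the rRNAs were higher or lower than in the class depended on the choice. A read with several alignments may be listed more than once, so the listed total can exceed the number of reads.

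**Figure D4:**
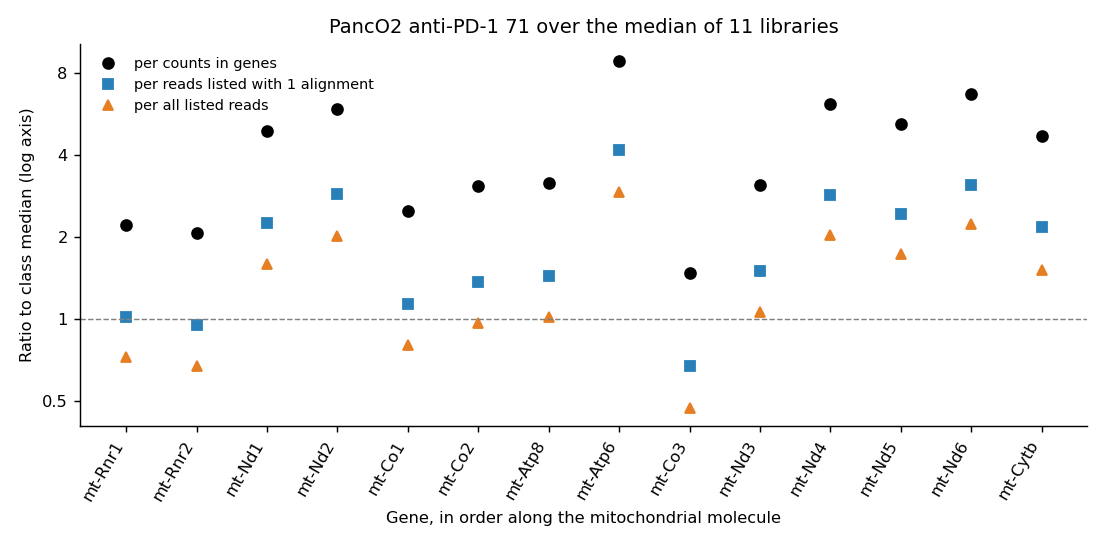
Ratio of PancO2 anti-PD-1 71 to the median of the other 11 H2-Ea-ps-positive libraries (log axis) for 14 genes in order along the molecule, per counts in genes, per reads listed with a single alignment and per all listed reads. mt-Atp6 is the highest and mt-Co3 the lowest on each scale, an order that a change of denominator could hardly alter. mt-Rnr1 and mt-Rnr2 fall to or below 1 on the latter scales.

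Nuclear genes of the same complexes were not higher in PancO2 anti-PD-1 71. The summed level of 78 nuclear subunits of complexes I to V was 5295 CPM, below the 5762 to 7238 CPM of the other H2-Ea-ps-positive libraries. CPM is a share of gene counts, however. Mitochondrial genes took 15.7% of these counts in this library, against 3.89% to 4.27% in the others of its class. This lowers the CPM of all its other genes, and the sum was not rescaled for it. The median ratio of the 78 subunits was 0.866 beside 0.860 over all genes kept, with 6 over 2-fold higher and 10 over 2-fold lower. Among complex I subunits, Ndufc1 stood highest at 3.74 times the class median and Ndufb11 lowest at 0.319 times. For 76 mitochondrial ribosomal protein genes the median ratio was 0.814, with 5 higher and 10 lower by over 2-fold, and for 37 genes of mitochondrial DNA expression and RNA processing it was 0.842, with 1 and 8. The latter included the mitochondrial DNA polymerase Polg, at 19.9 CPM against a class median of 61.5, and its accessory subunit Polg2, at 24.5 CPM against 10.1. Of 9 regulators of mitochondrial biogenesis, the coactivator Ppargc1a was at 16.1 CPM against a median of 1.78 and the nuclear receptor Esrra at 3.68 against 23.0. Of 12 mitochondrial stress genes, none was over 2-fold higher and 4 were over 2-fold lower.

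Other lists differed from the class in this library to varying extents. Of 223 processed pseudogenes, 89 were over 2-fold higher and 53 over 2-fold lower, beside 15.9% and 16.7% of all genes kept. Their median ratio was 1.17, and their summed level was 8042 CPM against 1323 to 1631 in the class. Of 11 skeletal muscle markers kept, 6 were over 2-fold higher, and the 12 listed together reached 124 CPM, within the 6.41 to 215 of the class, with Tnnc2 at 0. Of 3 adipocyte markers kept 2 were higher, at a summed 60.4 CPM against 23.4 to 60.7, with Plin1 at 0. Of 5 keratinocyte markers kept 3 were higher, at 14.5 CPM against 2.58 to 4.74, with Krt5, Krt1 and Lor at 0, and of 4 epithelial markers 3 were higher, at 34.1 CPM against 8.74 to 43.4, with none at 0. Of 8 leukocyte markers 1 was higher (332 CPM against 320 to 526), and none was at 0. Of 5 erythroid markers none was over 2-fold higher and 2 were over 2-fold lower, at a summed 13.8 CPM against 17.1 to 165. The 5 fibroblast and endothelial markers, none past 2-fold either way, summed to 1380 CPM against 1695 to 2679, so both lists lay below the class, with none of their markers at 0. Of 11 listed RNAs without poly(A) tails, 4 passed the filter, with a median ratio of 0.156. Of these, Rn7sk was at 39.6 CPM against 17.4 to 79.4, whereas Rmrp was at 0.507 CPM against 2.98 to 9.55, Rpph1 at 0.127 against 0.693 to 4.18 and Scarna2 at 0.254 against 0.284 to 1.94. In this library 0.507 CPM is 4 counts, so Rmrp, Rpph1 and Scarna2 rest on at most 4 counts each. Scarna2 can thus not be told from the lowest library of its class. Rn7s6, Rny1, Rny3 and Rnu12 of this list were at 0. The part of these features, and of the unassigned reads, in the mitochondrial share was not tested. In bulk RNA, a change in the mix of cells and a change in RNA per cell cannot be told apart.

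Among the classes, coding genes took the lowest share of counts in genes in Cp-low libraries. Their summed share was 2.66% to 3.20% in Cp-low, 3.13% to 4.06% in Cp-high and 3.62% to 4.12% in H2-Ea-ps-positive libraries without PancO2 anti-PD-1 71. Reads not assigned to genes made up 44.8% to 59.8% of listed reads in Cp-low libraries and 53.4% to 63.3% in those H2-Ea-ps-positive libraries. Per all listed reads, the coding shares of the H2-Ea-ps-positive and Cp-low classes overlapped. The size of the class difference on that scale was not computed. As a share of counts in genes, the median of the H2-Ea-ps-positive class lay 0.39 above that of the Cp-low class on the log2 scale (0.38 without PancO2 anti-PD-1 71). The median of the Cp-high class lay 0.35 above that of the Cp-low class. All 12 H2-Ea-ps-positive libraries were above all 12 Cp-low libraries for 9 of the 23 members kept, which were mt-Nd1, mt-Nd2, mt-Co1, mt-Co2, mt-Co3, mt-Nd5, mt-Nd6, mt-Cytb and mt-Te. Such a gap in this direction was seen for 9.19% of all genes kept (13.4% and the same count of members without PancO2 anti-PD-1 71). No member was lower without overlap, where 17% of genes were (20.4% without that library).

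Among coding genes, the largest differences between these classes were in mt-Nd5 and mt-Nd2, both complex I subunits. mt-Nd5 was between 2762 and 3320 CPM in the H2-Ea-ps-positive libraries other than PancO2 anti-PD-1 71 and between 1585 and 2327 in Cp-low libraries, a ratio of medians of 1.51. mt-Nd2 was between 1693 and 2102 CPM and between 1094 and 1609, a ratio of 1.48. Complex I subunits did not differ alike, with ratios of 1.13 for mt-Nd3 and 1.27 for mt-Nd4. mt-Atp6 was nearly level, with medians of 563 and 498 CPM and overlapping ranges. Between Cp-high and Cp-low libraries only mt-Nd3 did not overlap, at 480 to 688 against 287 to 453 CPM, where 14.6% of genes were higher without overlap. The Cp-high and H2-Ea-ps-positive classes overlapped for every member, beside 18.9% of genes higher and 12% lower without overlap (22.4% and 16.9% without PancO2 anti-PD-1 71). mt-Nd3 again lay furthest apart among coding genes, with a Cp-high median of 615 CPM against 451, whereas mt-Nd5 lay the other way, at 2673 against 3052.

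The classes overlapped in the summed level of nuclear subunits of the same complexes. For the 78 subunits it was 5762 to 7238 CPM in H2-Ea-ps-positive libraries without PancO2 anti-PD-1 71, 6017 to 7239 CPM in Cp-high and 5205 to 6730 CPM in Cp-low libraries. Without overlap and without that library, 7 of them were higher and 4 lower in the H2-Ea-ps-positive than in the Cp-low class, beside 13.4% and 20.4% of all genes. In the Cp-high class 17 were higher and 2 lower than in the Cp-low class, beside 14.6% and 15.5% of all genes. Of the 17, 10 belonged to complex I, which held 36 of the 78 subunits. Reads without a single position also differed, at 41.7% to 45.8% of listed reads in the H2-Ea-ps-positive class without PancO2 anti-PD-1 71, 37.8% to 43.4% in the Cp-high class and at most 37.7% in the Cp-low class. The 4 epithelial markers summed to 8.74 to 43.4, 571 to 1135 and 64.2 to 429 CPM in these classes, and the 8 leukocyte markers to 320 to 526, 486 to 757 and 585 to 1012 CPM. The part of these differences in the levels of the mitochondrial genes was not tested.

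The rRNAs did not separate the classes. mt-Rnr2 ran from 862 to 1579 CPM in H2-Ea-ps-positive libraries without PancO2 anti-PD-1 71, from 859 to 2001 in Cp-high and from 512 to 1806 in Cp-low libraries. mt-Rnr1 ran from 550 to 1332, from 457 to 1598 and from 281 to 1746 CPM. Among rRNA and coding genes other than mt-Nd4l, mt-Rnr1 varied most over the 35 libraries. Its highest level was 6.22 times its lowest, compared with 1.37 times for mt-Co1, 1.43 for mt-Atp6 and 1.54 for mt-Co3. Next among these genes came mt-Nd6 at 4.39 times and mt-Rnr2 at 3.91 times, and the rRNA variation lay within the classes.

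Within each class the rRNAs were higher where nuclear RNAs without a poly(A) tail were higher. The pattern was first seen for Rn7sk, which takes part in transcription control and ran from 4.31 to 79.4 CPM, in these same libraries. The p-values given for Rn7sk therefore describe these libraries and are no independent check. It was then computed for all 4 RNAs of this list that passed the filter, which added Rmrp and Rpph1, the RNA parts of RNase MRP and RNase P, and Scarna2, a small Cajal body RNA. This gave 36 relations over 35 libraries, on log2(CPM + 0.1), with permutation p-values adjusted over all 36.

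For mt-Rnr1 and Rn7sk, Pearson's r was 0.90 in 11 H2-Ea-ps-positive, 0.87 in 12 Cp-high and 0.92 in 12 Cp-low libraries (permutation p of 3e-05, 0.00033 and 2e-05, adjusted 0.00054, 0.00166 and 0.00054), with Spearman's rho of 0.89, 0.85 and 0.87 (permutation p of 0.00039, 0.00098 and 0.00055, adjusted 0.00468, 0.00706 and 0.00495). Over the 6 relations of both rRNAs in the 3 classes, r ran from 0.83 to 0.92 for Rn7sk (permutation p of at most 0.00172, adjusted at most 0.00418), from 0.80 to 0.90 for Rmrp (at most 0.00238, adjusted 0.00504), from 0.68 to 0.90 for Rpph1 (at most 0.0183, adjusted 0.0275) and from 0.73 to 0.85 for Scarna2 (at most 0.00997, adjusted 0.0156). Spearman's rho ran from 0.77 to 0.95, 0.74 to 0.88, 0.54 to 0.81 and 0.67 to 0.83 in the same order (permutation p of at most 0.0055, 0.0128, 0.0757 and 0.0199, adjusted at most 0.0124, 0.023, 0.114 and 0.0326). Rpph1 in the Cp-high class missed the threshold by rho with both rRNAs. Without the 2 libraries farthest from the median of each RNA, r over these 24 relations stayed between 0.58 and 0.90. The 4 RNAs were measured in the same libraries, so their relations are not independent of each other. For mt-Cytb no relation was detected with any of the 4, with r between -0.50 and 0.25 (permutation p of at least 0.0935, adjusted at least 0.135) and rho between -0.47 and 0.19 (permutation p of at least 0.128, adjusted at least 0.185). mt-Cytb was the only coding gene examined, so other coding genes may or may not show the relation. In the Cp-high class mt-Nd6 was at 744 and 612 CPM in MC38 IgG 7 and PancO2 anti-PD-1 70 (Rn7sk 4.31 and 6.37 CPM). It was at 1226 and 2460 CPM in CT26 IgG 28 and PancO2 IgG 48 (Rn7sk 60.8 and 69.9 CPM). In the H2-Ea-ps-positive class it was at 1251 CPM in CT26 anti-CTLA4 34 (Rn7sk 17.4 CPM) and 1182 in MC38 anti-PD-1 16 (79.4 CPM). The highest rRNA counts per 100 coding counts were in CT26 anti-PD-1 41, CT26 IgG 28 and MC38 anti-PD-1 19, at 12.7, 9.51 and 8.29. Reads in no annotated gene made up 21.1%, 20.1% and 17.7% of listed reads in these libraries. They made up 11.2% in CT26 IgG 24 and 11.6% in MC38 anti-CTLA4 10, which had 2.69 and 2.82 rRNA counts per 100. PancO2 anti-PD-1 70 had fewer such reads, at 10.2%, with 4.23 rRNA counts per 100. A relation of the rRNAs with this share of reads was not tested.

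**Figure D5:**
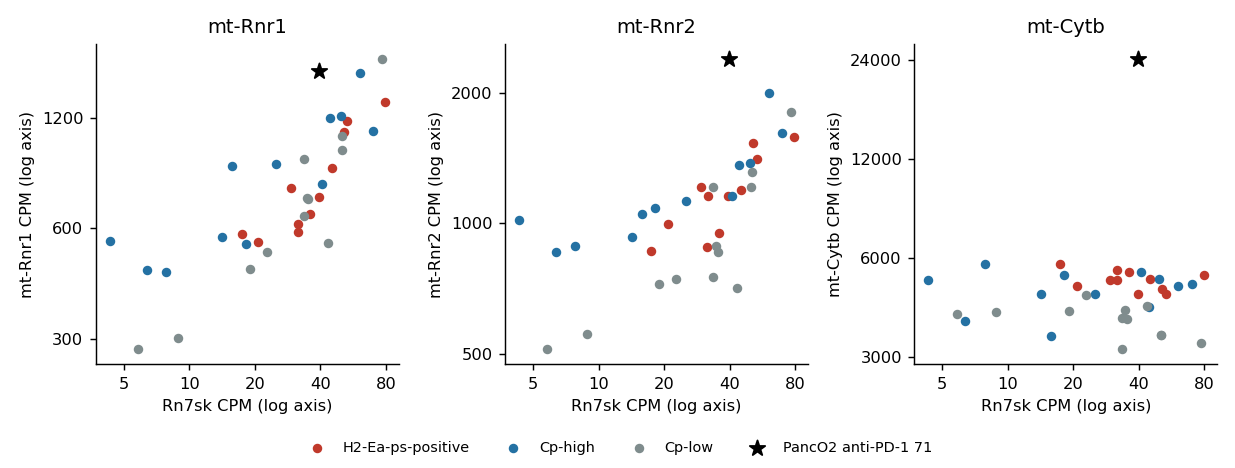
Level of mt-Rnr1, mt-Rnr2 and mt-Cytb against Rn7sk (CPM, log axes) in each library, coloured by class, with PancO2 anti-PD-1 71 as a star. Both rRNAs are higher where Rn7sk is higher within each class (r of 0.83 to 0.92). No such relation is seen for mt-Cytb, the only coding gene examined. PancO2 anti-PD-1 71 has an Rn7sk level of 39.6 CPM, amid the others. Its Rmrp and Rpph1 (not plotted) lie below its class on few counts, and its Scarna2 cannot be told from the lowest of its class.

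Another library stood apart at the neighbouring genes mt-Nd5, mt-Nd6 and mt-Te, a stretch chosen after its values were seen. Among the 35 libraries, PancO2 IgG 48, a Cp-high library, had the highest level of all 3. It had 5439 CPM of mt-Nd5 where the next library had 3320, 2460 CPM of mt-Nd6 where the next had 1309, and 115 CPM of mt-Te where the next had 63.95. mt-Cytb, which follows on the other side of mt-Te, was at 5003 CPM in this library, amid the 3475 to 5774 of its class. mt-Nd6 and mt-Te are on the minus strand, and mt-Nd5 and mt-Cytb on the plus strand. PancO2 IgG 48 had 49.2 counts of mt-Nd6 per 100 counts of mt-Cytb, against 29.9 in PancO2 anti-PD-1 71 and a median of 21.7.

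The labelled comparisons set these genes side by side between labelled treatments and labelled tumour models. Each was fitted across all genes with edgeR's quasi-likelihood test. In each of the 9 comparisons, 0 of 25 or 26 members tested passed an adjusted p of 0.05, beside 0.00% of all genes. Every labelled group mixed libraries of different expression classes, and this test called no gene between labelled models either. The absence of calls thus cannot show whether treatment or model altered these genes. Between 25 and 912 genes had an unadjusted p under 0.05, and 11 of these results were for members. DESeq2 called 0 to 2 genes and limma-voom 0, none of them a member. DESeq2 gave no adjusted p, however, to 7 members in both PancO2 treatment comparisons (mt-Nd1, mt-Nd2, mt-Nd4, mt-Atp6, mt-Cytb, mt-Ts1 and mt-Te) or to mt-Tg in 5 others, so these could not be called there. The models IgG against IgG and the treatments against IgG share control libraries, so their values are given side by side only. In the 8 comparisons other than PancO2 anti-PD-1 against IgG, the median log2 fold change of the 12 coding genes tested lay between -0.16 and 0.13.

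In PancO2 anti-PD-1 against IgG the 12 coding genes had a median log2 fold change of 1.08 (0.38 to 1.77, 12 of 12 above 0), while mt-Rnr1 was at 0.10 ± 0.42 (SE) and mt-Rnr2 at 0.37 ± 0.35. mt-Cytb was at 5003, 3495, 3164 and 5155 CPM in the IgG libraries 48, 49, 51 and 54 and at 5160, 5324, 3864 and 24284 CPM in the anti-PD-1 libraries 64, 68, 70 and 71. mt-Atp6 was at 490, 472, 474 and 577 CPM and at 576, 517, 410 and 4985 CPM, in the same order. For either gene, the first 3 anti-PD-1 libraries lay within or close to the range of the IgG libraries. The log2 fold change of mt-Cytb was 1.28 ± 0.54 (edgeR adjusted p = 0.806) and that of mt-Atp6 1.77 ± 0.71 (edgeR adjusted p = 0.806). Without PancO2 anti-PD-1 71 the coding median was 0.20, with 10 of 12 above 0. A fit of all 36 libraries called mt-Tq alone among members (edgeR adjusted p = 0.0467), beside 0.274% of all genes, and a fit of all libraries but PancO2 anti-PD-1 71 called none.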

How the data were processed

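Messenger RNA from 36 subcutaneous tumours was sequenced, and the values used are raw read counts per Ensembl gene as deposited by the authors. Per the labels and the study's methods, poly(A) RNA was isolated and libraries were made with the TruSeq V2 kit, and the authors mapped reads to GRCm38/mm10 with TopHat and Bowtie2 and assigned them to genes with HTSeq 07.2. FastQC 0.11.5 is also named in the submitters' processing notes. HTSeq sets aside reads with several positions and reads that fit 2 overlapping genes. The strand setting, Ensembl release and read length of these libraries are not given in the sources used here. Replicates were not pooled. No label says more of separate mice than their numbers, so p-values measure the spread between these libraries.

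The 5 summary lines of the table, 3 of which hold reads, were left out of library totals except as a named alternative. The labels gave 9 groups of 4 libraries. In 54 pairs within groups, no pair agreed within sampling noise (chi-square per degree of freedom of at least 10.5). Nuclear copies were sought as shared 50-base stretches between the members and GENCODE transcripts of GRCm38. The genome itself was not used here. Intervals of ratios come from exact Poisson limits of the count in PancO2 anti-PD-1 71.

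Labelled groups were compared with edgeR 4.0.16 in R 4.3.3 (filterByExpr, TMM, robust quasi-likelihood fit, two-sided, Benjamini-Hochberg adjusted p under 0.05 over all genes tested). Fits between models used the 12 IgG libraries and fits between treatments the 12 libraries of a model. Standard errors are the log2 fold change over the square root of F. The study's methods name limma without these samples or covariates, so limma-voom (limma 3.58.1) was an alternative, as were the DESeq2 1.42.0 Wald test, other scalings, other filters, other sets of libraries, a class term and leaving out each library. Descriptions kept genes above 1 CPM in at least 4 libraries and were made in Python 3.11.15 (scipy 1.17.1 for intervals and 100000 permutations per correlation, pandas 2.3.3 and numpy 2.4.6 for tables). Figures used matplotlib 3.10.9. Only the edgeR, DESeq2 and limma-voom fits were tried on simulated counts, for PancO2 anti-PD-1 against IgG. DESeq2 made 29 and 31 false calls there, beside 197 and 191 recovered of 200 changed genes. The simulated libraries held no expression classes, so this does not show what the fits can find where classes mix.

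All members were accounted for. Named were the 13 coding and 2 rRNA genes, the 5 tRNAs with the highest median and those with at least 10 counts in PancO2 anti-PD-1 71, nuclear copies of at least 200 bases, and from each list of nuclear genes up to 2 genes with the highest and 2 with the lowest ratio. The members and lists were chosen with earlier results of these data known.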

Additional observations from a re-analysis of the deposited data

Results flagged for a closer look

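Each labelled group of 4 libraries was searched for a library far from the other 3, by Dixon's test at its 95% critical value of 0.829, for 5 measures in 9 groups. This gave 5 results in 45 sets. Chance alone sets apart about 1 in 20, but the measures share genes and the 5 results come from 2 libraries, so nothing is read from their number. The part of any cause in them was not tested.

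PancO2 anti-PD-1 71 lay above the other 3 libraries of its label in 3 measures. Its high mitochondrial share was known beforehand and was among the questions asked of these genes, so the values are a description and no test. Its mitochondrial share was 15.7% against 3.27% to 4.24%, its coding share 15.2% against 3.13% to 4.06%, and its mt-Atp6 level 4985 CPM against 410 to 576. Its rRNA share, at 0.401%, did not pass the same test.

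CT26 anti-PD-1 41 lay above the other 3 libraries of its label in the rRNA share, at 0.355% against 0.126% to 0.161%, and in rRNA counts per 100 coding counts, at 12.7 against 3.99 to 4.26. Its Rn7sk level of 77.0 CPM was the second highest of the 36 libraries, after MC38 anti-PD-1 16 at 79.4, and its coding share was not set apart.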

How the results depend on the processing

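Of 180 other fits of the 9 labelled comparisons, including those that left out each library (0 members in each), 179 called 0 members. The exception was a fit of all 36 libraries for PancO2 anti-PD-1 against IgG, which called 1, mt-Tq. In 7 DESeq2 fits, 1 or 7 members had no adjusted p. No paired analysis was possible because each mouse number belongs to 1 library. The mitochondrial share of PancO2 anti-PD-1 71 was 2.11% of all listed reads, 5.35% of reads listed with a single alignment (a denominator added after the data were seen, as were the class terms in fits of all libraries), 8.25% without the 7 genes that share at least 10% of their 50-base stretches with a nuclear transcript, and 18.6 per 100 counts of other genes. Its coding ratio of 3.89 was 1.25 per all listed reads, 1.77 per reads with a single alignment, 4.42 per non-mitochondrial counts, 4.19 over the other 35 libraries and 5.21 without those 7 genes. Its rRNA ratio of 2.12 was 0.699, 0.978 and 2.42 with those denominators and 2.46 over the other 3 libraries of its label. The denominators scale the reads assigned to genes directly. The rRNA-to-coding ratio of 0.52 stayed between 0.39 and 0.63. For coding genes, the log2 ratio of H2-Ea-ps-positive over Cp-low libraries was 0.47 with TMM, 0.48 with DESeq2 size factors and 0.55 as a mean of log2 CPM, and that of Cp-high over H2-Ea-ps-positive libraries -0.16, -0.13 and -0.23. None of these scalings takes in the reads not assigned to genes. The log2 rRNA ratios moved by less than the spread between libraries. mt-Nd4l and most tRNAs were too sparse to compare at this depth.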
